A study of Homo sapiens with 9 samples.

Results

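ATF4 stress targets are described here by 10 genes: ATF4 itself and ATF3, DDIT3, DDIT4, INHBE, ASNS, TRIB3, CHAC1, PPP1R15A and VLDLR. They are 10 of 18132 genes on the array and are read by 22 of 49293 probe sets, each of which is annotated to 1 gene symbol only. The 10 genes were chosen partly from values measured in these samples, since INHBE, DDIT4 and ASNS had been seen higher with bare gold particles and far lower with the peptide conjugate. Their values in those 2 comparisons are therefore a description and are given with no test.

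The samples were 9 PrimeView arrays of the human retinoblastoma line Y79 in 3 groups of 3: cells exposed to gold nanoparticles conjugated to an HDM2 peptide (GNPs-HDM2), cells exposed to the bare particles (GNPs) and cells left untreated (Control). HDM2 is the human form of MDM2, the ubiquitin ligase that holds p53 low, and the study is about a peptide aimed at the contact between p53 and HDM2. All cells were grown in RPMI medium, and for all 3 groups biotin-labelled cRNA was made from 6 ug of total RNA, per the labels. The labels of the treated samples spell the line Y97, while the field for the cell line gives Y79 for every sample. No dose, exposure time or culture of origin is stated in the labels. The spread behind each p-value is thus that of these 9 samples and may be purely technical.

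The integrated stress response is a relay in which 4 kinases, each alert to a different stress, phosphorylate the translation factor eIF2alpha. Translation falls in general while the ATF4 mRNA is translated more, and ATF4 protein, a bZIP transcription factor, then switches on genes for amino acid synthesis, amino acid transport and redox balance, and under long stress genes tied to cell death. ATF4 binds C/EBP-ATF response elements, often with another bZIP protein as partner, and the pathway is shut off again through PPP1R15A, which brings a phosphatase to eIF2alpha. In the retina the pathway is best known from photoreceptors under protein folding stress.

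The deposited values are on a log scale, taken here as base 2 without a record of it, and are set against a per-probe-set baseline, so they carry no absolute level and genes cannot be ranked by abundance. A value of 0 means the baseline. Over all probe sets the SD of the values was 1.25, 1.49 and 0.645 on the GNPs-HDM2 arrays, 0.277 to 0.318 on the GNPs arrays and 0.241 to 0.361 on the Control arrays. The step size of the stored numbers allowed most probe sets to be put in classes of baseline level, called dim (13499 probe sets), middle (23544) and bright (8080), with 4170 unclassed. In GNPs-HDM2 minus Control the median probe set of these classes stood at 0.49, 0.18 and -1.31, and in GNPs minus Control at -0.09, -0.04 and 0.08. A direction of a bright gene in GNPs-HDM2 cells therefore depends on whether it is read against all probe sets or against those of its own class. Of the 7 measured markers of the Y79 line, 4 fell in GNPs-HDM2 cells against Control in the limma fit at an adjusted p under 0.05 (CRX, OTX2, RBP3 and MYCN) and 0 rose, where 25.1% of all genes fell and 33.1% rose. The mean of the 7 markers ran between -1.36 and 0.01 on GNPs-HDM2 arrays, between 0.42 and 0.51 on GNPs arrays and between 0.37 and 0.69 on Control arrays. Of the markers of other cells, 3 of 5 fibroblast genes, 4 of 4 blood genes and 2 of 3 pigment epithelium genes rose in GNPs-HDM2 cells, beside the 33.1% of all genes. Their median differences were 0.49, 0.68 and 0.51, where that of all dim probe sets was 0.49. The mean of the 5 fibroblast genes ran between 0.30 and 0.90 on GNPs-HDM2 arrays, between -0.14 and -0.10 on GNPs arrays and between -0.01 and 0.11 on Control arrays. The mean of the 4 blood genes ran between 0.38 and 1.0 on GNPs-HDM2 arrays, between -0.20 and -0.10 on GNPs arrays and between -0.02 and 0.19 on Control arrays. The mean of the 3 pigment epithelium genes ran between 0.40 and 0.54 on GNPs-HDM2 arrays, between -0.16 and -0.01 on GNPs arrays and between -0.12 and 0.09 on Control arrays. Whether any marker was absent cannot be read from values without a level, and the part of these shifts in the results below was not tested. In bulk RNA, fewer cells of a kind and less of an RNA per cell cannot be told apart.

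Promoter sequence was on hand for 9 of the 10 genes, INHBE being the exception. The windows below are the 250 bases before a start site, from RefSeq on GRCh38.p14, 5′ to 3′ on the gene's own strand. ASNS and DDIT4 are shown because their values moved together over the arrays, and CHAC1 and PPP1R15A because theirs did not follow. Capitals mark a match to the C/EBP-ATF response element TGATGNAAN on either strand, or to the cyclic AMP response element TGACGTCA, which reads the same on both. The ASNS window is chr7:97872409-97872658 on the minus strand, the DDIT4 window chr10:72273674-72273923, the CHAC1 window chr15:40953221-40953470 and the PPP1R15A window chr19:48872171-48872420, these 3 on the plus strand.
ASNS: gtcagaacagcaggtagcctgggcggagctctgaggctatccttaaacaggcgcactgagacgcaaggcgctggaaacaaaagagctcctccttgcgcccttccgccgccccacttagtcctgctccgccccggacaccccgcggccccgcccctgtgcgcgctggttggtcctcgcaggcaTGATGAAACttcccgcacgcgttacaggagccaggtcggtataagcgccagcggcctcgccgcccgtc
DDIT4: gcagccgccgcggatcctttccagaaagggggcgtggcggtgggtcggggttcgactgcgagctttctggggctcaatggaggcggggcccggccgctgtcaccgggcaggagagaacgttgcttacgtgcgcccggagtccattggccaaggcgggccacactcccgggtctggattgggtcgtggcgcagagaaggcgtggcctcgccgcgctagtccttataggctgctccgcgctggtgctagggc
CHAC1: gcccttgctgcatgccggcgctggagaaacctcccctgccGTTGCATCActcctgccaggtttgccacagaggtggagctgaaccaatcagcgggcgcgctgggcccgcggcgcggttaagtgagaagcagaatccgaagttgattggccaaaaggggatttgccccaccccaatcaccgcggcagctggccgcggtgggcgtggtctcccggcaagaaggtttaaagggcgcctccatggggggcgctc
PPP1R15A: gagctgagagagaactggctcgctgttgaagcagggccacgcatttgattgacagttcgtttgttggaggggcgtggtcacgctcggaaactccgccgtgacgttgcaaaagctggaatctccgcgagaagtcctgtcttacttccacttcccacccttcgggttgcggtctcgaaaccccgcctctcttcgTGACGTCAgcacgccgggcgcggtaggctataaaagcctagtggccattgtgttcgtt
In ASNS the match TGATGAAAC starts 68 bases before the start site, and in CHAC1 TGATGCAAC lies on the opposite strand at 210 bases. ATF3, not printed, holds TGATGGAAG at 191 bases. PPP1R15A holds TGACGTCA at 58 bases. The DDIT4 window holds neither motif. Of 35116 human windows of the same length, 3.13% hold the first motif and 1.65% the second, against 3 and 1 of the 15 windows of the 9 genes. A match is a run of letters and no proof of binding.

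Bare gold nanoparticles went with higher INHBE, DDIT4 and ASNS, by 3.11-fold, 3.17-fold and 2.40-fold over Control, and with differences of 0.10, 0.03 and -0.21 on the log2 scale in ATF3, CHAC1 and PPP1R15A. With the conjugate the same 3 genes were below the bare particle by 26.1-fold, 4.76-fold and 3.09-fold. Against Control, INHBE fell 8.37-fold in GNPs-HDM2 cells, whereas DDIT4 and ASNS did not pass the test, and PPP1R15A and ATF3 rose. The arrays that chose INHBE, DDIT4 and ASNS also give GNPs-HDM2 against Control. Test results for these 3 genes are therefore not independent of the choice, in any setting. Over all genes 33.1% rose and 25.1% fell in that comparison. After quantile normalization INHBE and ATF3 no longer passed, while DDIT4 and ASNS passed as higher. The PPP1R15A call held in every alternative.

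INHBE encodes the beta E subunit of activin E, a secreted ligand of the TGF-beta family best known from liver, and it is read by 1 bright probe set. Its values were -4.08, -4.31 and -3.25 on the GNPs-HDM2 arrays, 0.82, 0.57 and 1.08 on the GNPs arrays and -0.87, -0.71 and -0.86 on the Control arrays. The 3 groups did not overlap: all GNPs arrays lay above all Control arrays and all GNPs-HDM2 arrays far below both. The means were -3.88 ± 0.56 in GNPs-HDM2 cells, 0.82 ± 0.25 in GNPs cells and -0.81 ± 0.09 in Control cells (SD, n = 3 each). GNPs minus Control was 1.64 with a standard error of 0.26, rank 10 from the highest of 18132 genes. GNPs-HDM2 minus GNPs was -4.70 with the same error, the lowest of all 18132 genes. GNPs-HDM2 minus Control was -3.07 with a standard error of 0.26 (limma, Benjamini-Hochberg adjusted p = 0.000376), rank 39 from the lowest. This last comparison uses the arrays of the 2 that chose the genes and is their sum, so its p-value is not independent of the choice. Within the bright class, 2.88% of probe sets lay lower than INHBE in GNPs-HDM2 minus Control, and 2 of 8080 in GNPs-HDM2 minus GNPs. Centred on its level class, INHBE was at -1.81 against Control (limma adjusted p = 0.000302), and after quantile normalization at -0.98, where it no longer passed (limma adjusted p = 0.119).

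**Figure D1:**
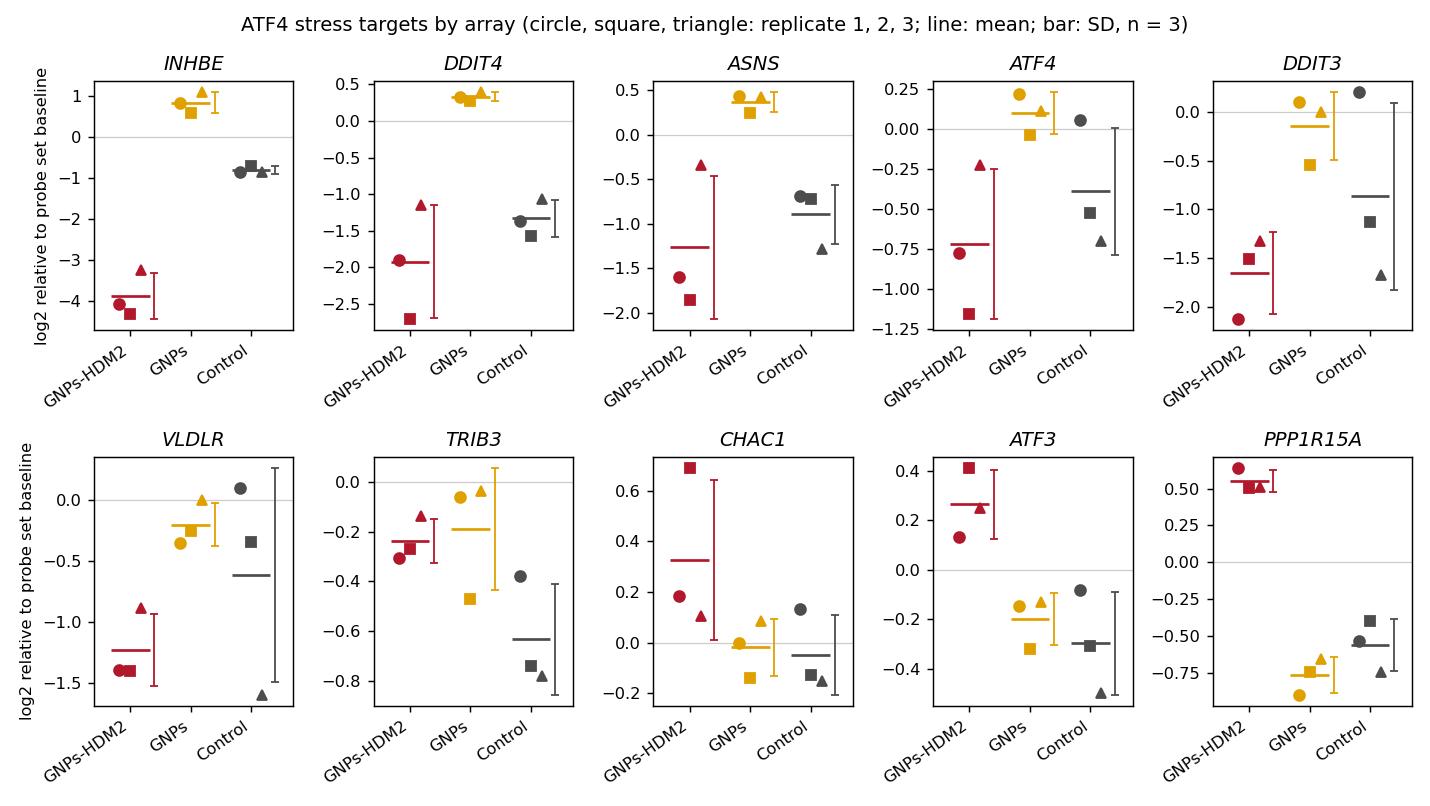
Values of the 10 genes on each of the 9 arrays, on the log2 scale relative to the probe set baseline, with GNPs-HDM2, GNPs and Control from left to right in each panel; symbols are replicates, lines are means and bars are SD (n = 3). INHBE separates into 3 levels, with means of -3.88 in GNPs-HDM2, 0.82 in GNPs and -0.81 in Control cells, while PPP1R15A stands at 0.55 in GNPs-HDM2, -0.76 in GNPs and -0.56 in Control cells.

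DDIT4, also called REDD1, restrains the growth kinase complex mTORC1 and is read by 1 bright probe set. It had -1.90, -2.70 and -1.15 on the GNPs-HDM2 arrays, 0.33, 0.28 and 0.39 on the GNPs arrays and -1.36, -1.57 and -1.06 on the Control arrays. The GNPs arrays were above all others with the smallest spread, and the GNPs-HDM2 and Control arrays overlapped. DDIT4 averaged -1.92 ± 0.78 in GNPs-HDM2 cells, 0.33 ± 0.06 in GNPs cells and -1.33 ± 0.26 in Control cells (SD, n = 3 each). GNPs minus Control was 1.66 (standard error 0.33), rank 8 from the highest, and 99.9% of bright probe sets lay lower. GNPs-HDM2 minus GNPs was -2.25. The difference of GNPs-HDM2 from Control, -0.59, did not pass (limma adjusted p = 0.138). That sign turned to 0.67 when each array was centred within level classes (limma adjusted p = 0.00739) and to 1.13 after quantile normalization (adjusted p = 0.00731). Without GNPs-HDM2 replicate 3 the difference was -0.97 (limma adjusted p = 0.00362). As for INHBE, these p-values against Control come from the arrays that chose the gene and are not independent of the choice.

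ASNS makes asparagine from aspartate and glutamine, and its mRNA is a classic readout of amino acid shortage. The mean of its 4 bright probe sets was -1.59, -1.85 and -0.34 on the GNPs-HDM2 arrays, 0.43, 0.24 and 0.43 on the GNPs arrays and -0.69, -0.72 and -1.28 on the Control arrays. The GNPs arrays again stood above all others, and GNPs-HDM2 replicate 3 lay above every Control array while the other GNPs-HDM2 arrays lay below them. GNPs minus Control was 1.26 (standard error 0.35), rank 23 from the highest, and ran between 1.16 and 1.42 over the 4 probe sets. GNPs-HDM2 minus GNPs was -1.63, and ran between -1.84 and -1.54 over the probe sets. Against Control, GNPs-HDM2 cells differed by -0.37, which did not pass (limma adjusted p = 0.363). As with DDIT4 the sign turned, to 0.89 within level classes (limma adjusted p = 0.00475) and to 1.0 after quantile normalization (adjusted p = 0.0158). Without GNPs-HDM2 replicate 3 it was -0.83 (limma adjusted p = 0.00318). The p-values of ASNS against Control are likewise not independent of the choice of the gene.

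**Figure D2:**
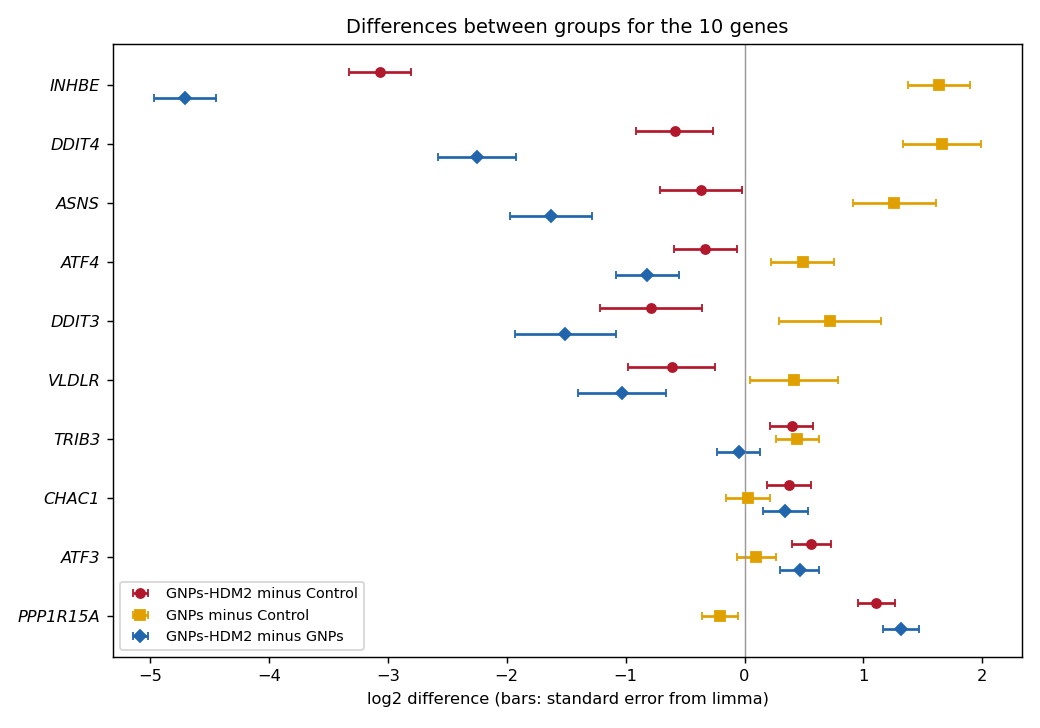
Differences between groups for the 10 genes on the log2 scale, with standard errors from limma; red circles are GNPs-HDM2 minus Control, yellow squares GNPs minus Control and blue diamonds GNPs-HDM2 minus GNPs. INHBE, DDIT4 and ASNS lie between 1.26 and 1.66 in GNPs minus Control, and PPP1R15A at 1.11 is the highest of the 10 in GNPs-HDM2 minus Control.

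Among the transcription factors, ATF4 had -0.78, -1.16 and -0.23 on the GNPs-HDM2 arrays, 0.22, -0.04 and 0.11 on the GNPs arrays and 0.06, -0.53 and -0.70 on the Control arrays. The GNPs and Control arrays overlapped, through Control replicate 1, and the GNPs-HDM2 arrays were below the GNPs arrays. GNPs minus Control was 0.49 and GNPs-HDM2 minus GNPs was -0.82. For GNPs-HDM2 minus Control it was -0.33 (limma adjusted p = 0.287), and it turned to 0.93 within level classes (adjusted p = 0.0114) and to 0.55 after quantile normalization (adjusted p = 0.301). The level-class setting also turned GNPs-HDM2 minus GNPs, to 0.52. In the bright class 83.3% of probe sets lay lower than ATF4 in GNPs-HDM2 minus Control. ATF4 is controlled largely at translation, which an array does not read. ATF4 and PPP1R15A are each read by 1 probe set of the kind marked x by the maker, whose probes may also match other transcripts.

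DDIT3, or CHOP, is the bZIP factor tied to cell death under long stress. It had -2.13, -1.51 and -1.33 on the GNPs-HDM2 arrays, 0.10, -0.54 and 0.00 on the GNPs arrays and 0.20, -1.13 and -1.67 on the Control arrays. Its Control arrays spread widely, with replicate 1 the highest of all 9, and overlapped both other groups. GNPs minus Control was 0.72 and GNPs-HDM2 minus GNPs was -1.51, with both probe sets on the same side. Against Control the conjugate stood at -0.79 with a standard error of 0.43 (limma adjusted p = 0.129), -1.19 without Control replicate 3 (adjusted p = 0.0499) and of the opposite sign, 0.51, after quantile normalization (adjusted p = 0.608).

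ATF3, a stress-induced bZIP factor that can repress as well as activate, had 0.13, 0.41 and 0.25 on the GNPs-HDM2 arrays, -0.15, -0.32 and -0.13 on the GNPs arrays and -0.08, -0.31 and -0.50 on the Control arrays. Every GNPs-HDM2 array was above all 6 others, and the GNPs and Control arrays overlapped. The rise in GNPs-HDM2 over Control was 0.56 with a standard error of 0.16 (limma adjusted p = 0.0173), a 1.48-fold difference. Its 7 probe sets ran between 0.03 and 1.12, and 3 of them rose in the limma fit over probe sets, where 24.9% of all probe sets did. The call was lost without Control replicate 2 (limma adjusted p = 0.0552), without Control replicate 3 (0.0661), after median centring (0.0517), after quantile normalization (0.0578), with array weights (0.110) and with only the 2 groups (0.0633).

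**Figure D3:**
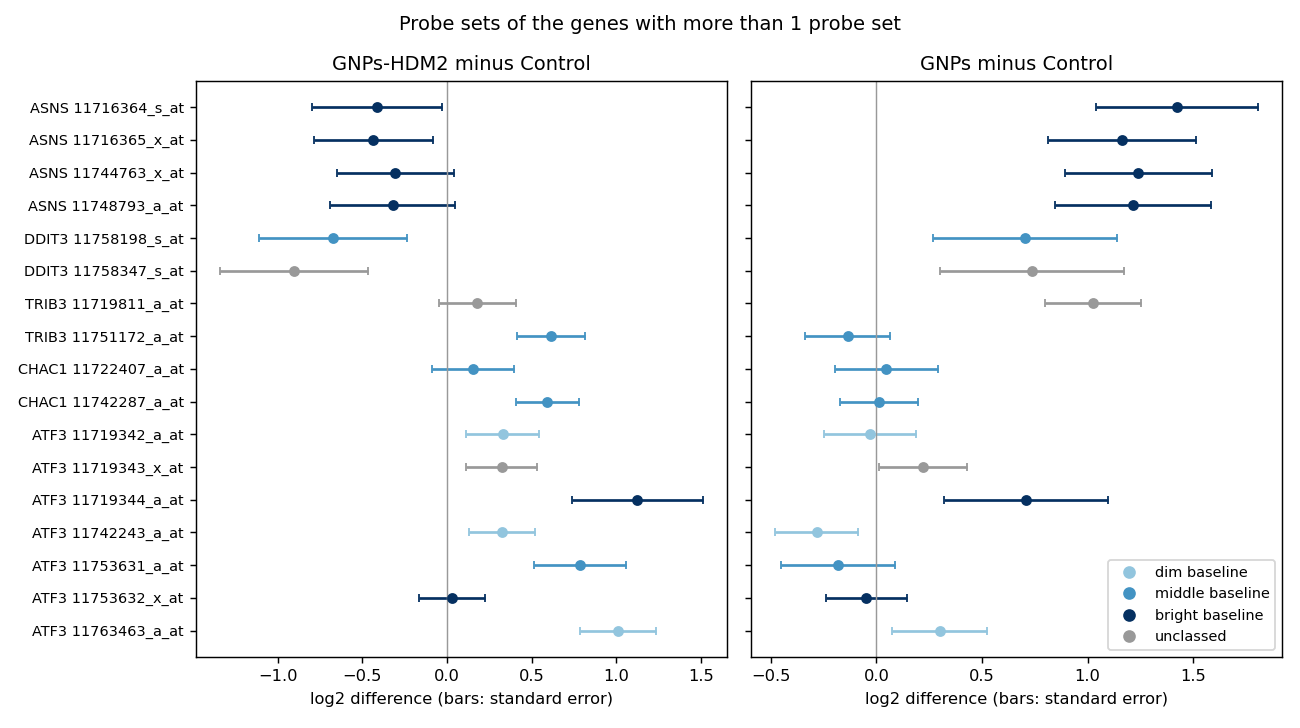
Differences of each probe set of the 5 genes read by more than 1, with GNPs-HDM2 minus Control on the left and GNPs minus Control on the right, on the log2 scale with standard errors; colour gives the class of baseline level. The 4 ASNS probe sets lie together, while those of TRIB3 and ATF3 spread, from 0.18 to 0.61 and from 0.03 to 1.12 in the left panel.

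PPP1R15A, or GADD34, is the feedback subunit that directs protein phosphatase 1 to eIF2alpha. It had 0.64, 0.50 and 0.51 on the GNPs-HDM2 arrays, -0.90, -0.75 and -0.65 on the GNPs arrays and -0.54, -0.40 and -0.74 on the Control arrays. All GNPs-HDM2 arrays were above all others, with an SD of 0.08, and the GNPs and Control arrays overlapped. The means were 0.55 ± 0.08 in GNPs-HDM2 cells, -0.76 ± 0.12 in GNPs cells and -0.56 ± 0.17 in Control cells (SD, n = 3 each). PPP1R15A rose 2.16-fold in GNPs-HDM2 over Control, by 1.11 with a standard error of 0.15 (limma adjusted p = 0.00145). Over the 18 alternatives it stayed between 0.95 and 1.44, with adjusted p-values up to 0.0151. GNPs-HDM2 minus GNPs was 1.32, in the opposite direction to INHBE, DDIT4 and ASNS, and GNPs minus Control was -0.21.

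TRIB3, a pseudokinase that restrains ATF4 and AKT signalling, was 0.40 higher in GNPs-HDM2 than in Control cells (standard error 0.18, limma adjusted p = 0.0801). All GNPs-HDM2 arrays, at -0.31, -0.27 and -0.14, were above all Control arrays, at -0.38, -0.74 and -0.78. The GNPs arrays had -0.06, -0.47 and -0.04 and overlapped with both. Its 2 probe sets disagreed: one stood at 0.18 in GNPs-HDM2 minus Control and 1.03 in GNPs minus Control, the other at 0.61 and -0.14, so the gene mean of GNPs minus Control, 0.45, holds both. CHAC1, an enzyme that breaks down glutathione, lay between 0.11 and 0.69 on the GNPs-HDM2 arrays, between -0.14 and 0.09 on the GNPs arrays and between -0.15 and 0.13 on the Control arrays. The GNPs-HDM2 minus Control difference was 0.37 for CHAC1 (limma adjusted p = 0.107) and GNPs minus Control 0.03, and the first passed without GNPs-HDM2 replicate 3 (0.48, adjusted p = 0.0278). CHAC1 also passed when read by its probe set of largest SD alone (0.59, limma adjusted p = 0.0373). Its other probe set stood at 0.16 in GNPs-HDM2 minus Control, with the groups overlapping. VLDLR, a lipoprotein and reelin receptor, had -1.39, -1.40 and -0.89 on the GNPs-HDM2 arrays, -0.35, -0.25 and 0.00 on the GNPs arrays and 0.10, -0.34 and -1.60 on the Control arrays. The wide Control spread of VLDLR, with replicate 3 the lowest of the 9 arrays, overlapped both other groups. For VLDLR, GNPs-HDM2 minus Control was -0.61 (limma adjusted p = 0.167), -1.10 without Control replicate 3 (adjusted p = 0.0155) and of the opposite sign, 0.39, after quantile normalization (adjusted p = 0.598).

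In GNPs-HDM2 against Control, 2 of the 10 genes rose (PPP1R15A and ATF3), 1 fell (INHBE) and 7 did not pass the limma threshold of adjusted p under 0.05. Over all genes, 33.1% rose and 25.1% fell, so passing is common there and the share of the 10 that did is below the 58.3% of all genes. The median of the 10 was -0.35, against 0.25 over all genes. Groups did not overlap for 3 of the 10 upward and 1 downward, against 36% and 23.9% of all genes. In GNPs minus Control, the median of the 10 was 0.47, against -0.06 over all genes, 9 of 10 were above 0, and the groups did not overlap for 3 upward and 0 downward (12.4% and 21.5% of all genes). In GNPs-HDM2 minus GNPs, the median was -0.92, against 0.30, with no overlap for 3 upward and 6 downward (45.9% and 30.5% of all genes). The choice of the genes used these last 2 comparisons, and nothing is read from their counts. GNPs-HDM2 minus Control is their sum on the same arrays, so its counts for the 10 are not independent of the choice.

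**Figure D4:**
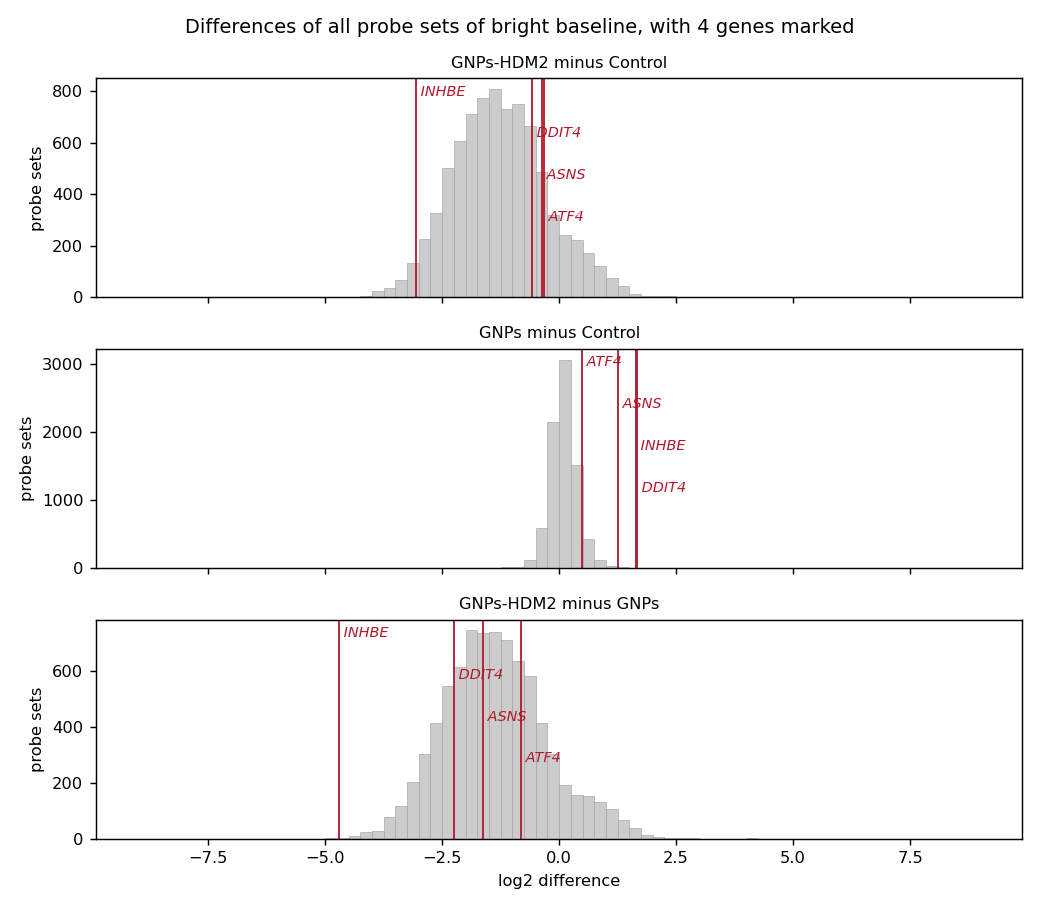
Number of bright probe sets (of 8080) by log2 difference, in bins of 0.25, for GNPs-HDM2 minus Control, GNPs minus Control and GNPs-HDM2 minus GNPs from top to bottom, with INHBE, DDIT4, ASNS (mean of 4 probe sets) and ATF4 marked. In the top panel INHBE at -3.07 lies at the low end and the other genes lie above the class median of -1.31, and in the middle panel INHBE and DDIT4, at 1.64 and 1.66, lie at the high end.

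The further targets of ATF4 were read from a list of 51 genes drawn up from general knowledge of the pathway, of which 49 were measured. Earlier results of these data were known when the list was drawn up, so its counts are a description and no independent support. With bare particles 1 of the 49 passed in the limma fit, SLC7A11, the cystine transporter subunit, and 0 fell (all genes: 0.0221% higher and 0% lower). At an unadjusted p under 0.05 there were 11 of 49, beside 972 of all 18132 genes. SLC7A11 had -0.46, -0.43 and -0.83 on the GNPs-HDM2 arrays, 0.43, -0.11 and 0.33 on the GNPs arrays and -1.42, -1.41 and -1.66 on the Control arrays. The 3 groups did not overlap, and SLC7A11 rose in GNPs over Control by 1.71 with a standard error of 0.19 (3.27-fold, limma adjusted p = 0.0233). That call did not pass in 8 of 18 alternatives, among them the fits without Control replicate 1, 2 or 3, GNPs replicate 1 or 3, or GNPs-HDM2 replicate 1 (limma adjusted p between 0.0518 and 0.252). CTH, which makes cysteine in the transsulfuration route, was 4.29-fold higher in GNPs than in Control cells without passing (2.10, limma adjusted p = 0.106). Its values were -2.06, -2.38 and -1.76 with the conjugate, 0.20, -0.18 and 0.51 with bare particles and -1.59, -1.57 and -2.62 in Control cells. Of the 49 genes, 35 were above 0 in GNPs minus Control with a median of 0.23 (all genes -0.06), and the groups did not overlap for 23 upward and 2 downward (12.4% and 21.5% of all genes).

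In GNPs-HDM2 against Control, 8 of the 49 rose and 14 fell in the limma fit (33.1% and 25.1% of all genes), with a median of -0.41. The rises included SLC7A11 (0.92, adjusted p = 0.00536), the glycine transporter SLC6A9 (0.93, adjusted p = 0.00739), the mitochondrial folate enzyme ALDH1L2 (0.86, adjusted p = 0.0039) and the stress factor NUPR1 (0.59, adjusted p = 0.0117). The falls included KLHL24 (-1.89, adjusted p = 0.00262), the proline synthesis enzyme ALDH18A1 (-1.81, adjusted p = 0.00379), the glutamyl-prolyl tRNA synthetase EPRS1 (-1.79, adjusted p = 0.00396) and the autophagy gene MAP1LC3B (-1.18, adjusted p = 0.00538). The split of 8 higher and 14 lower became 17 and 5 when arrays were centred within level classes, and 7 and 1 after quantile normalization. All 18132 genes gave 4257 higher and 4011 lower in the first of these settings, and 572 and 1355 in the second. In the level-class fit all 4 named rises passed, at 0.78 for SLC7A11, 0.80 for SLC6A9, 0.40 for ALDH1L2 and 0.47 for NUPR1. KLHL24 (-1.55), ALDH18A1 (-1.24) and EPRS1 (-0.53) still passed as lower, while MAP1LC3B did not (-0.27, limma adjusted p = 0.249).

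Between conjugate and bare particle, 7 of the 49 rose and 29 fell in the limma fit (43.2% and 29.1% of all genes, 72.3% in either direction), with a median of -0.74 against 0.30 over all genes. The falls included CTH (-2.24, limma adjusted p = 0.000696), the serine synthesis enzyme PSAT1 (-1.74, adjusted p = 0.000921), mitochondrial PCK2 (-1.61, adjusted p = 0.000868) and the asparaginyl tRNA synthetase NARS1 (-1.49, adjusted p = 0.000966). The 4 named rises were the secreted peptide gene ADM2 (1.35, limma adjusted p = 0.000926), SLC6A9 (1.11, adjusted p = 0.00211), the secreted glycoprotein gene STC2 (0.93, adjusted p = 0.00251) and ALDH1L2 (0.92, adjusted p = 0.0016). Within level classes the split was 14 higher and 18 lower, where 5826 of all 18132 genes were higher and 4827 lower. All 8 named genes kept their direction and passed in that fit. This comparison shares the GNPs arrays with GNPs against Control, and the 2 are given side by side with no test between them.

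**Figure D5:**
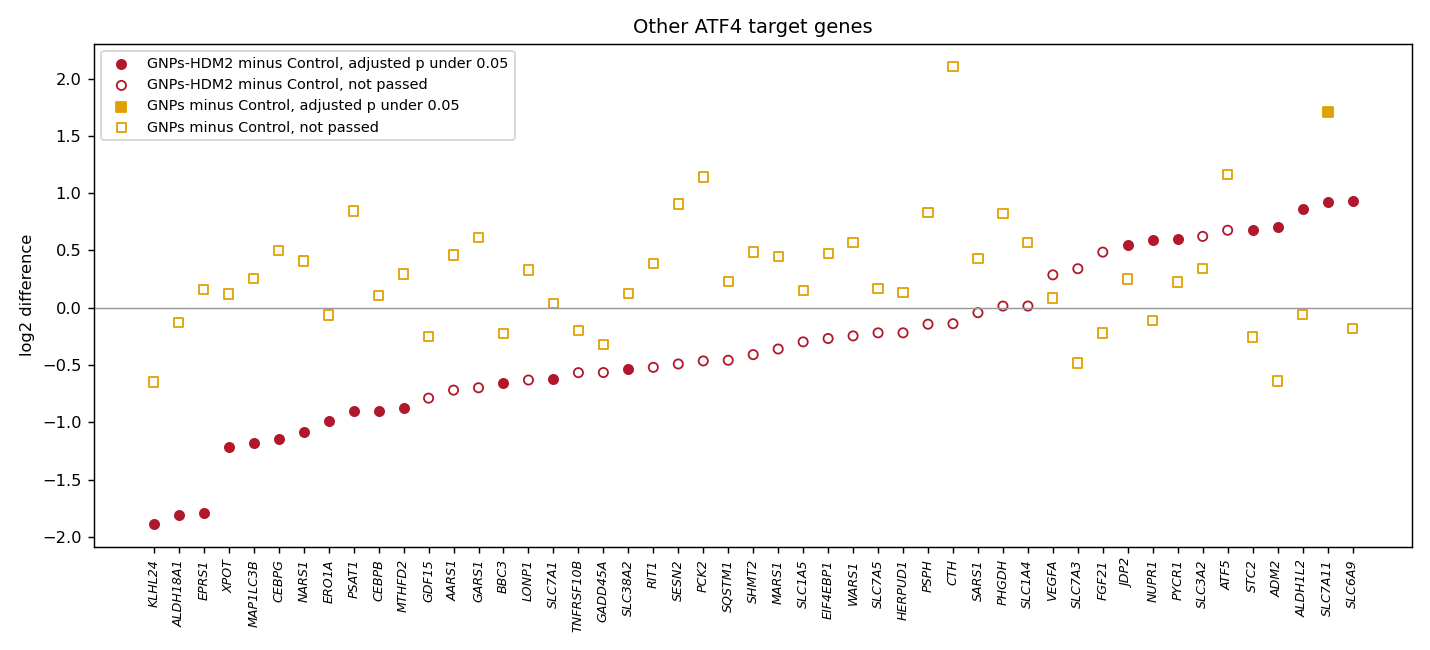
Log2 differences of the 49 measured further ATF4 targets, ordered by GNPs-HDM2 minus Control (red circles), with GNPs minus Control as yellow squares; filled symbols passed limma at an adjusted p under 0.05. In red 8 genes are filled above 0 and 14 below it, and in yellow SLC7A11 alone is filled.

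Upstream of ATF4, all 4 kinases of eIF2alpha fell in GNPs-HDM2 cells against Control in the limma fit, as 25.1% of all genes did. EIF2AK2 (PKR, alert to double-stranded RNA) differed by -1.77 (standard error 0.30, limma adjusted p = 0.00285) and EIF2AK3 (PERK, alert to misfolded protein in the endoplasmic reticulum) by -1.39 (standard error 0.29, adjusted p = 0.00545). EIF2AK1 (HRI, alert to haem shortage) differed by -1.33 (standard error 0.27, limma adjusted p = 0.00451) and EIF2AK4 (GCN2, alert to uncharged tRNA) by -1.12 (standard error 0.21, adjusted p = 0.00358). For each kinase the GNPs-HDM2 arrays lay below all Control arrays. Within level classes all 4 still passed as lower with a median of -1.26, and after quantile normalization 1 of 4 passed. Of all 18132 genes, 4011 passed as lower in the first of these settings and 1355 in the second. With bare particles the 4 ran between -0.22 and 0.13 over Control, and 0 passed in limma, also at an unadjusted p under 0.05. Of 12 genes for eIF2, its exchange factor and linked regulators, 10 fell and 0 rose in GNPs-HDM2 against Control (25.1% and 33.1% of all genes), with a median of -1.17. Within level classes 6 of the 12 fell, and after quantile normalization 1 did, beside the same 4011 and 1355 of all genes. In GNPs against Control 0 of these 12 passed, with 1 at an unadjusted p under 0.05.

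Of 11 measured close relatives of the 10 genes, 2 rose, 6 fell and 3 did not pass in GNPs-HDM2 against Control in the limma fit (33.1% and 25.1% of all genes rose and fell). The 2 higher and 6 lower became 2 and 3 within level classes, and 1 and 2 after quantile normalization. All 18132 genes gave 4257 and 4011 in the first of these settings, and 572 and 1355 in the second. Of the other inhibin and activin subunits, INHA rose by 0.84 (adjusted p = 0.00757) and INHBA by 0.47 (adjusted p = 0.0295), INHBB fell by 1.68 (limma adjusted p = 0.00648), and INHBC was at 0.61 (adjusted p = 0.151). In the level-class fit INHA still passed at 0.71 (limma adjusted p = 0.00709), and INHBA (0.16) and INHBB (-0.42) did not. INHBB was 0.76 lower in GNPs than in Control cells without passing (limma adjusted p = 0.864), where INHBE was 1.64 higher. The INHBB groups did not overlap, as held downward for 21.5% of all genes in that comparison. DDIT4L, the paralogue of DDIT4, fell by 1.82 (limma adjusted p = 0.00317), with -0.52, -0.18 and -0.11 on the GNPs-HDM2 arrays, 1.31, 1.35 and 1.22 on the GNPs arrays and 0.78, 1.52 and 2.33 on the Control arrays. Its GNPs arrays lay within the Control range, where those of DDIT4 lay above it. PPP1R15B, the constitutive paralogue of PPP1R15A, fell by 1.10 (standard error 0.18, limma adjusted p = 0.00264), the opposite direction to PPP1R15A. The other falls were CHAC2 (-2.37, adjusted p = 0.0138), the reelin receptor LRP8 (-1.70, adjusted p = 0.00766) and TRIB1 (-1.13, adjusted p = 0.0258), while TRIB2 was at 0.13 (limma adjusted p = 0.524). Within level classes CHAC2 (-1.11, limma adjusted p = 0.0626) and TRIB1 (-0.58, adjusted p = 0.118) did not pass. DDIT4L (-1.94), LRP8 (-1.13) and PPP1R15B (-0.53) still passed as lower in that fit. ATF5, the closest relative of ATF4 and also on the list of 49, stood at 0.68 in GNPs-HDM2 minus Control (limma adjusted p = 0.13) and at 1.16 in GNPs minus Control with no overlap (adjusted p = 0.864), and within level classes the first passed at 1.22 (adjusted p = 0.00522). With bare particles 0 of the 11 passed, and 1 had an unadjusted p under 0.05.

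The likeness of other genes to the mean profile of INHBE, DDIT4 and ASNS was measured by Pearson's r over the 9 arrays, which share the same hybridisations, among 7765 genes with an SD of at least 0.5. The 6 most alike that are not among the 10 were DNASE2 and PSAT1 (r = 0.99 each) and GRB10, C4orf33, CDC25C and DUS4L (0.98 each). DNASE2, a lysosomal nuclease, had -0.84, -1.15 and -0.46 on the GNPs-HDM2 arrays, 0.46, 0.31 and 0.55 on the GNPs arrays and -0.35, -0.36 and -0.21 on the Control arrays. PSAT1 had -1.59, -1.99 and -0.78 with the conjugate, 0.23, 0.27 and 0.38 with bare particles and -0.65, -0.51 and -0.50 in Control cells. In both genes the 3 groups stood in the order of INHBE, without overlap. They were picked for likeness to a profile of genes chosen for that pattern, so nothing is read from the order. Among the 10 genes outside that profile, r with it was 0.86 for ATF4, 0.78 for DDIT3, 0.73 for VLDLR and 0.17 for TRIB3, and it was -0.65 for ATF3, -0.66 for CHAC1 and -0.86 for PPP1R15A. The spread of r over the 7765 genes is not given here, and the arrays are those that chose the 10 genes. These r values are therefore a description, and no shared control is read from them.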

How the data were processed

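The labels describe 9 PrimeView arrays in 3 groups of 3. The authors deposited log2 values (the base is assumed) against a per-probe-set baseline, with no summarising tool named in the labels. The table held 49395 probe sets, from which 102 array controls were removed. A gene was the mean of its probe sets annotated to 1 symbol. Baseline level classes came from the step size of the stored numbers, by a rule tested on simulated numbers.

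All 9 arrays entered 1 fit in limma 3.58.1 (lmFit, eBayes; R 4.3.3), 2-sided, with Benjamini-Hochberg adjustment over 18132 genes (or 49293 probe sets) at 0.05. Standard errors are of log2 differences, from the fit. The number of arrays limits the precision. The fit takes the spread of the 3 groups as equal, although the GNPs-HDM2 arrays varied most. On simulated data with that unequal spread, false calls were far more common than the adjusted threshold allows in both comparisons that involve GNPs-HDM2, so adjusted p-values there may be too small. In GNPs against Control the shared spread may be too wide, and a fit of only those 2 groups called 61 genes instead of 4. A gene that did not pass there is therefore not shown to be unchanged. Same-numbered GNPs-HDM2 and Control arrays deviated together (r = 0.156, 0.107 and 0.290), while those of the other comparisons did not all do so. Control replicate 1 and GNPs-HDM2 replicate 2, of unlike number, had an r of 0.209. A pairing by number is thus read from the data only and is not established.

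The 10 genes and all lists were chosen with earlier results of these data known. Named were the 10 genes, the 4 kinases and the relatives whatever their values, and in each comparison up to 4 rising and 4 falling further targets past the threshold with the smallest adjusted p. The 6 likeness genes had the highest r. Alternatives were quantile normalization, median centring, centring within level classes, the replicate number as a block, trend and robust settings, array weights, the probe set of largest SD, dim probe sets left out, 2-group fits and leaving out each array. Promoter sequences are RefSeq's, on GRCh38.p14.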

Additional observations from a re-analysis of the deposited data

Results flagged for a closer look

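The 18 hybridization control probe sets, which read RNA added to every sample before hybridization and take no part in the gene results, stood 2.06 higher on GNPs-HDM2 than on Control arrays on the log2 scale. They averaged 1.68 ± 0.30 on GNPs-HDM2 arrays, -0.12 ± 0.37 on GNPs arrays and -0.38 ± 0.05 on Control arrays (SD, n = 3 each). The 3 GNPs-HDM2 arrays lay above all others, at 1.88, 1.83 and 1.33. This signal was picked out because it lies outside the gene measurements and above its level in the Control arrays. The poly-A controls were 1.72 higher on GNPs-HDM2 than on Control arrays, the background probes 0.52 higher, and the 18S probe sets differed by -2.11. GNPs-HDM2 replicate 3 had the smallest shift in the hybridization, poly-A and background controls. It is also the array whose removal brought ATF4, DDIT4, ASNS and CHAC1 past the threshold against Control. Its removal took the genes past that threshold from 10566 to 14045 of 18132. The part of these shifts in the gene results was not tested.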

How the results depend on the processing

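Counts of genes past the limma threshold moved with the setting. For GNPs against Control the 4 genes became 2780 after quantile normalization, 714 with array weights, 61 with only the 2 groups, 7 within level classes and 0 with trend and robust settings, and 2 to 15 when an array was left out. The 1 further ATF4 target called there became 20, 13 and 5 under the first 3 of these and 0 with trend and robust settings, and 0 to 1 when an array was left out. For GNPs-HDM2 against Control the 10566 genes became 1927 after quantile normalization, 6699 with array weights and 6439 with only the 2 groups, and 6524 to 14045 when an array was left out. The 22 further targets called there became 8, 12 and 11 under those settings and 13 to 35 when an array was left out. With the probe set of largest SD they became 36, where 11388 of all genes passed. The 3 of 10 stress targets called became 6 within level classes, where 8268 of all 18132 genes passed. When an array was left out they became 2 to 7. The 7 came without GNPs-HDM2 replicate 3, where 14045 of all genes passed. For GNPs-HDM2 against GNPs the 13114 genes became 10770 to 15048 and the 36 further targets 28 to 42 when an array was left out, and 22 after quantile normalization. The share of higher calls moved too. For GNPs-HDM2 against Control, 6006 higher and 4560 lower genes became 572 and 1355 after quantile normalization and 4154 and 5054 after median centring. For GNPs against Control, 4 higher and 0 lower became 1263 and 1517 after quantile normalization. The 2 higher and 1 lower stress targets became 3 and 0, 1 and 1, and 5 and 1 after quantile normalization, median centring and level-class centring. In the last of these settings all genes gave 4257 and 4011. Within level classes signs turned for GNPs-HDM2 minus Control in ATF4 (0.93), DDIT4 (0.67), ASNS (0.89) and DNASE2 (0.29), and for GNPs-HDM2 minus GNPs in ATF4 (0.52), INHBB (0.42) and ATF5 (0.10). After quantile normalization they turned for GNPs-HDM2 minus Control in ATF4 (0.55), DDIT3 (0.51), DDIT4 (1.13), ASNS (1.0), VLDLR (0.39), DNASE2 (0.34), PSAT1 (0.44) and C4orf33 (0.50), and for GNPs-HDM2 minus GNPs in TRIB3 (0.40) and ATF5 (0.34). The cause of these moves was not tested. With the replicate number as a block the counts were 10443, 3 and 12954 genes for GNPs-HDM2 against Control, GNPs against Control and GNPs-HDM2 against GNPs, 24, 0 and 35 further targets, and 3 stress targets. All 3 same-numbered pairs of GNPs-HDM2 and Control arrays correlated over 0.1, against 1 of the other 6 pairs, and in 9 of 18 comparisons of an array with another group the same-numbered array correlated best. For GNPs-HDM2 against Control the block changed no call of a named gene; elsewhere SLC7A11 in GNPs against Control (limma adjusted p = 0.066) and INHBB in GNPs-HDM2 against GNPs (adjusted p = 0.056) no longer passed. Of 1960 recomputed differences of single named genes, 35 changed sign.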

Other observations

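INHBE and DDIT3 lie close together on chromosome 12, with 3 protein-coding genes between them and INHBC on the far side of INHBE. These neighbours were taken by position after values had been seen. In GNPs-HDM2 minus Control they ran, in their order along the chromosome, 0.61 for INHBC (limma adjusted p = 0.151), -3.07 for INHBE, 1.0 for GLI1 (adjusted p = 0.00665), 0.74 for ARHGAP9 (adjusted p = 0.00642), -0.36 for MARS1 (limma adjusted p = 0.183) and -0.79 for DDIT3. GLI1, the Hedgehog pathway factor, had 1.37, 1.37 and 0.64 on the GNPs-HDM2 arrays, -0.03, -0.06 and -0.43 on the GNPs arrays and 0.29, 0.09 and 0.00 on the Control arrays. MARS1, itself on the list of further ATF4 targets, was 0.45 higher in GNPs than in Control cells with no overlap (limma adjusted p = 0.864). Against Control, the values of both immediate neighbours of INHBE were above 0 and that of INHBE below it. Of all 18132 genes, 10827 were above 0 in that comparison and 33.1% rose in the limma fit, so nothing particular to this stretch is read from the signs.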
